A study of Homo sapiens with 3 samples.

Results

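The ATP-binding cassette (ABC) genes were followed in QBC-939 cells, a human line from cholangiocarcinoma (cancer of the bile duct). They were taken as the genes with a coding transcript whose symbol is ABC, a letter from A to G and a number. The rule found 41 genes among the 30923 in the table, of which 15591 have a coding transcript. ABCG5 carries a matching symbol but is listed with a retained-intron transcript alone, so it is no member. ABCA8, ABCB5 and ABCC9 have no row and were not analysed here. There were 3 groups with 1 library each, all of the same wild-type line: cells overexpressing miR-182-5p, cells overexpressing miR-183-5p, and cells with the control labelled NC. The treatment is labelled "oe" for each group, "mim" ends both microRNA titles, and the labels give no form, dose or time of overexpression. The study asks which genes differ when either microRNA is raised. As no group was replicated, no difference has a replicate check and none was tested, so all values describe these 3 libraries.

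ABC proteins use ATP to move substrates across membranes, and the letter in the symbol gives the subfamily. In the bile duct and liver, members of the C and G subfamilies carry drugs, conjugates and bile salts out of the cell, and members of the A and G subfamilies hand cholesterol and phospholipids to outside acceptors. The E and F subfamilies have the ATP-binding domains but no membrane domain: they work at the ribosome and are not transporters, so "ABC genes" is used below for all 41.

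The overexpressed microRNAs are shown because their seeds, bases 2 to 8 from the 5′ end (in capitals), set which transcripts they can pair with. Both are written as RNA, from RefSeq, and both are encoded on chromosome 7 (GRCh38.p14, minus strand).
hsa-miR-182-5p: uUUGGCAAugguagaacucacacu
hsa-miR-183-5p: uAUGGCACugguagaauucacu
A perfect seed match is TTGCCAA for miR-182-5p and GTGCCAT for miR-183-5p. In the longest annotated 3′ UTR, 2 of the 28 ABC genes with a mean of at least 50 counts (7.14%) held a miR-182-5p match, against 15.2% of 12406 genes searched. A miR-183-5p match was held by 4 of 28 (14.3%), against 12.4% of genes. The median 3′ UTR was 1045 bases for these ABC genes and 1323 bases for the genes searched. The windows below are those of the ABC genes discussed in the results, 22 bases each in transcript orientation with the match in capitals (GRCh38).
ABCE1, miR-182-5p match: tgtacttacctggtTTGCCAAg
ABCA12, miR-182-5p match: actcctgccatgccTTGCCAAt
ABCB10, miR-183-5p match: ggaaaataatccttGTGCCATa
ABCB8, miR-183-5p match: caagcacctgtcatGTGCCATt
ABCA1, first miR-183-5p match: cagttgacagaatgGTGCCATg
ABCA1, second miR-183-5p match: tcagtacacttcctGTGCCATg
The ABCE1 window lies at chr4:145127937-145127958 (plus strand), and its match begins at base 378 of a 3′ UTR of 1606 bases. The ABCA12 window lies at chr2:214931953-214931974 (minus), the ABCB10 window at chr1:229516696-229516717 (minus) and the ABCB8 window at chr7:151047483-151047504 (plus). The ABCA1 windows lie at chr9:104783702-104783723 and chr9:104782941-104782962 (minus). In the ABCB10 window alone of these 6 the match is followed by an A, the base that extends a seed match to its longest form. The fourth gene with a miR-183-5p match was ABCC8. Matches for miR-182-5p in ABCA6, ABCB11 and ABCD2 lie in genes with too few counts to compare.

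The gene counts summed to 61709874 for miR-182-5p, 67427313 for miR-183-5p and 64516706 for NC. Mitochondrially encoded genes took 16.7%, 16.1% and 13.5% of the counts in that order, and genes with no coding transcript 5.18%, 4.73% and 4.06%. Markers of bile duct epithelium had counts in every library for 5 of 5 genes (summed 949.5 to 975.1 CPM, counts scaled to 1000000 per library), although KRT7 stood at only 4.99 to 6.96 CPM. Of the hepatocyte markers, SERPINA1 was high (995 to 1358 CPM) but ALB had at most 9 counts. Fibroblast markers summed to 11.2 to 20.2 CPM, immune markers to 1.59 to 3.84 CPM and endothelial markers to 1.24 to 2.22 CPM. The markers APOB, COL3A1, CD3E and CDH5 have no row and were not analysed here.

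Levels between genes are compared as the deposited FPKM, which is scaled to transcript length. In NC 20 of 41 ABC genes had an FPKM of 1 or more, and with either microRNA 21 did. Of the 41, 28 had a mean of at least 50 counts over the 3 libraries and 13 had fewer. The drug and conjugate exporters held 34.8% of the family's summed FPKM in the NC library, and the ribosome-associated ABCE1 and ABCF1 to ABCF3 held 36.4%. These shares were 41.6% and 26.7% with miR-182-5p, and 37.3% and 32.1% with miR-183-5p. The order of these classes in NC, where they lay close together, thus differed from that in both microRNA libraries.

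**Figure D1:**
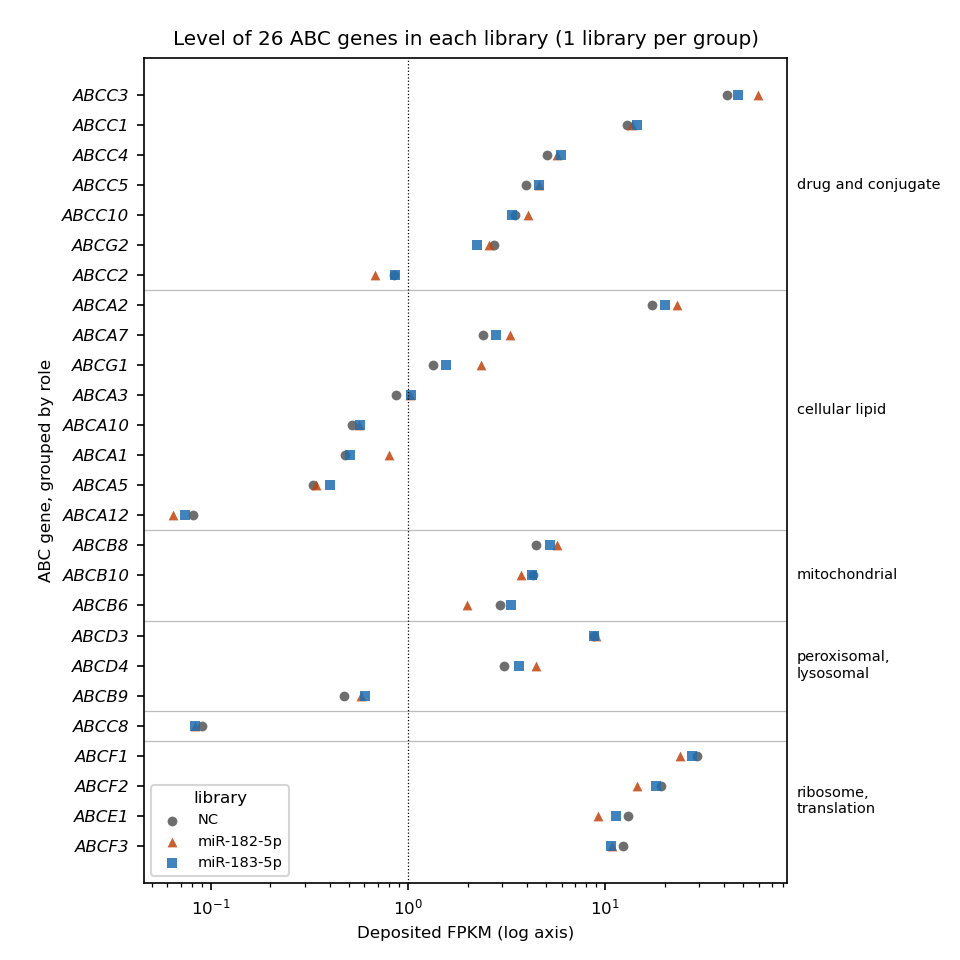
Deposited FPKM (log axis) of 26 of the 28 ABC genes with a mean of at least 50 counts, grouped by role; each point is 1 library and the dotted line marks an FPKM of 1. ABCC3 has the highest level in every library, from 41.2 (NC) to 59.5 (miR-182-5p), and ABCA12 and ABCC8 lie below 0.1.

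ABCC3 (ENSG00000108846, chromosome 17, 50634777 to 50692253 in the authors' file), the basolateral exporter of conjugated bile salts and glucuronides also called MRP3, was the most highly expressed member. Its FPKM was 59.5 with miR-182-5p, 46.9 with miR-183-5p and 41.2 in NC, rank 395, 565 and 718 among all genes. ABCC1, the glutathione-conjugate exporter MRP1, followed among the drug exporters at 13.7, 14.5 and 12.9 in the same order. ABCC4, which exports cyclic nucleotides, prostaglandins and bile salts, was at 5.66, 5.99 and 5.04, and ABCC5, another cyclic nucleotide exporter, at 4.63, 4.61 and 3.96. ABCC10 was at 4.06, 3.35 and 3.48. ABCG2, the breast cancer resistance protein, was at 2.58, 2.23 and 2.72, and ABCC2, the apical conjugate exporter MRP2 of the bile canaliculus, stayed below 1 in every library at 0.681, 0.861 and 0.846. The basolateral ABCC3 thus had a far higher level than the apical ABCC2 and ABCG2 in all 3 libraries. ABCB1, the classical multidrug exporter P-glycoprotein, had 3 counts with miR-182-5p and 0 otherwise, where 0 counts allow up to 0.0445 (miR-183-5p) and 0.0465 CPM (NC) at a floor of 3 counts.

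In the miR-182-5p library against NC, the lipid transporters ABCA1, ABCG1, ABCA2 and ABCA7 and the conjugate exporter ABCC3 were among the higher ABC genes. ABCB6 and the ribosome-associated ABCE1 and ABCF2 were among the lower. A CPM at least 25% higher was seen in 7 of 28 ABC genes (25%), where 24.4% of all 15477 genes with as many counts and 17.3% of those with a coding transcript passed the same threshold. A CPM at least 20% lower (a ratio of at most 0.8) was seen in 5 of 28 (17.9%), where the shares were 14.4% of all genes and 14.5% of coding genes. The higher share was therefore close to that of all genes but above that of coding genes. The median log2 ratio was 0.08 for the members, 0.02 for all genes and -0.02 for coding genes. The split depended on the scaling. With mitochondrial genes left out of the library total it was 8 higher and 3 lower, where 28% and 10.6% of all genes passed. With TMM factors it was 6 higher and 6 lower, where the shares of all genes were 21% and 19.3%.

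**Figure D2:**
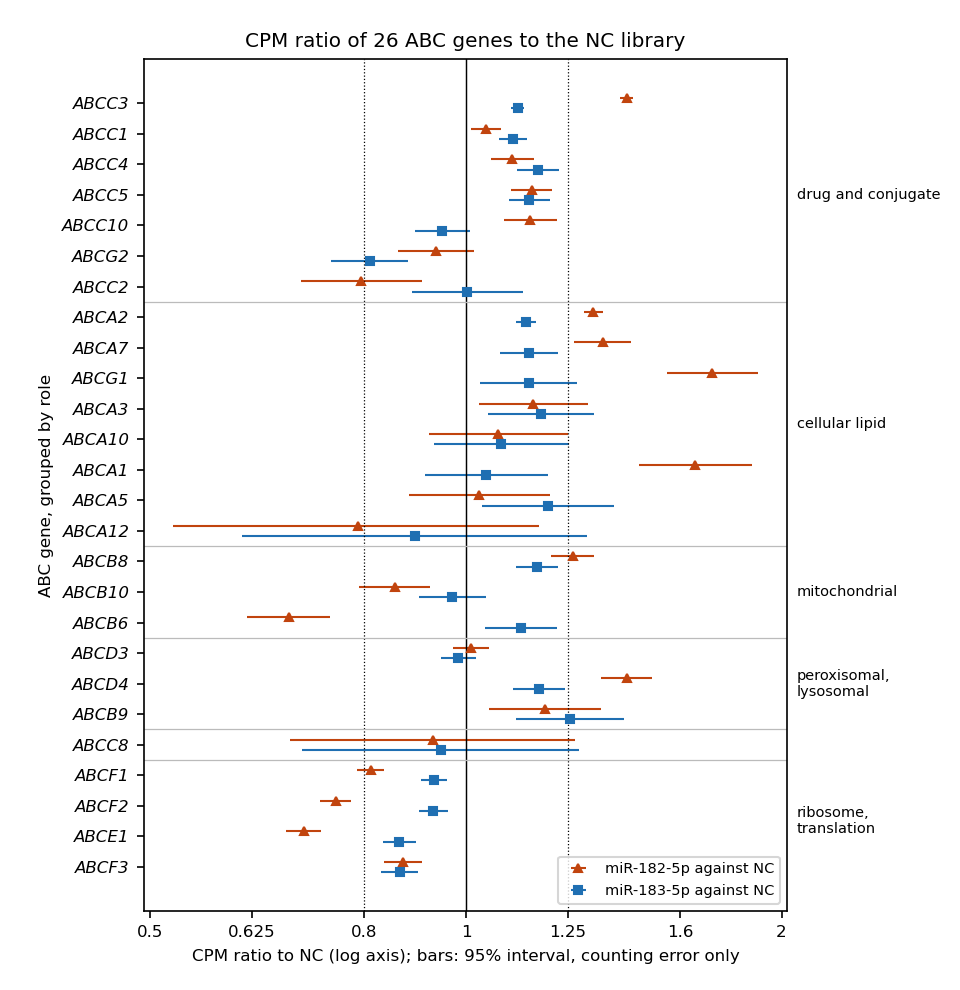
CPM ratio to the NC library (log axis) of 26 of the 28 ABC genes, grouped by role, for the miR-182-5p library (triangles) and the miR-183-5p library (squares); bars are 95% intervals for counting error only, and dotted lines mark the thresholds. ABCG1, ABCA1, ABCD4 and ABCC3 lie farthest right and ABCB6, ABCE1 and ABCF2 farthest left, all in the miR-182-5p library.

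Among the drug and conjugate exporters, ABCC3 was the member past the threshold on the higher side. It had 678 CPM (41840 counts) with miR-182-5p, 533.6 CPM (35979) with miR-183-5p and 476.4 CPM (30733) in NC. The miR-182-5p library was thus the highest and the NC library the lowest. Its ratio to NC was 1.42 (95% interval 1.40 to 1.44, counting error only, as for all intervals below) for miR-182-5p and 1.12 (1.103 to 1.137) for miR-183-5p. The miR-182-5p ratio was 1.366 with TMM factors and 1.479 with mitochondrial genes left out. Both values pass the threshold but lie outside the counting interval. ABCC3 overlaps no annotated gene on either strand. The summed level of all 41 ABC genes was 2043 CPM with miR-182-5p and 1790 CPM in NC, and without ABCC3 it was 1365 and 1313 CPM. The sums without ABCC3 hide opposite differences. The lipid transporters summed to 403.9 CPM with miR-182-5p and 303.4 CPM in NC, and the ribosome-associated members to 351.2 and 449.5 CPM.

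ABCC2 had 393 counts (6.37 CPM) with miR-182-5p, 542 (8.04 CPM) with miR-183-5p and 517 (8.01 CPM) in NC. The first library was lower than the others, which were nearly equal. The ratio to NC was 0.795 (0.695 to 0.908) for miR-182-5p and 1.003 (0.888 to 1.13) for miR-183-5p. The first value no longer passed the threshold with mitochondrial genes left out (0.826), as an FPKM ratio (0.8047) or on the scale of log2 of FPKM plus 1 (0.911).

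ABCC4 and ABCG2 lay between the thresholds in both microRNA libraries. ABCC4 had 57.9 CPM with miR-182-5p, 61.3 with miR-183-5p and 52.3 in NC, giving ratios of 1.11 (1.06 to 1.16) and 1.17 (1.12 to 1.23). ABCG2 had 17.1, 14.8 and 18.3 CPM in that order, with ratios of 0.937 (0.861 to 1.018) and 0.809 (0.743 to 0.881). ABCG2 was thus lowest in the miR-183-5p library and ABCC4 lowest in NC. ABCC1, ABCC5 and ABCC10 had ratios of 1.05, 1.16 and 1.15 with miR-182-5p and 1.11, 1.15 and 0.949 with miR-183-5p. Of the 7 exporters in this class that could be compared, 1 was past the threshold on each side with miR-182-5p and 0 with miR-183-5p. The shares of all genes were 24.4% higher and 14.4% lower with miR-182-5p, and 12.4% and 8.61% with miR-183-5p. For coding genes, here and for the classes and lists below, they were 17.3% and 14.5%, and 7.18% and 6.9%.

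The lipid exporters included the members with the largest higher ratios. ABCA1 (ENSG00000165029, chromosome 9, 104781006 to 104928155 in the authors' file), which loads cholesterol onto lipid-poor apolipoprotein A-I, had 663 counts (10.7 CPM) with miR-182-5p, 458 (6.79 CPM) with miR-183-5p and 419 (6.49 CPM) in NC. Its ratio to NC was 1.65 (1.46 to 1.87) for miR-182-5p and 1.05 (0.914 to 1.20) for miR-183-5p. ABCG1, which passes cholesterol to high-density lipoprotein, had 1047 counts (16.97 CPM), 764 (11.3 CPM) and 637 (9.87 CPM) in that order. Its ratios were 1.72 (1.56 to 1.899) and 1.15 (1.03 to 1.28). ABCA1 and ABCG1 are both classical targets of the oxysterol-sensing liver X receptors, and both were highest in the miR-182-5p library. These genes have low levels (FPKM 0.479 and 1.34 in NC), and on the scale of log2 of FPKM plus 1 their ratios for miR-182-5p were 1.22 and 1.42.

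ABCA2, an endolysosomal lipid transporter and by FPKM the highest A member, had 316.3 CPM with miR-182-5p, 272.9 with miR-183-5p and 239.2 in NC. Its ratios were 1.32 (1.295 to 1.351) and 1.14 (1.12 to 1.17). ABCA7, a phospholipid exporter related to ABCA1, had 37.5, 31.9 and 27.8 CPM, with ratios of 1.35 (1.27 to 1.44) and 1.15 (1.08 to 1.22). ABCA2 and ABCA7 thus had the same order of libraries as ABCC3. ABCA3, which fills lamellar bodies with surfactant lipid in lung, had ratios of 1.16 and 1.18, ABCA5 of 1.03 and 1.20, and ABCA10 of 1.07 and 1.08. ABCA12, the keratinocyte lipid transporter, had 46, 57 and 61 counts, and its ratio of 0.788 (0.526 to 1.18) with miR-182-5p passed the threshold but its interval includes 1. In all, 4 of 8 lipid transporters were higher and 1 lower with miR-182-5p (24.4% and 14.4% of all genes). With miR-183-5p 0 passed either threshold (12.4% and 8.61%). The 8 include ABCA2 and ABCA3, which work in compartments inside the cell.

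Sterol trafficking genes and lipoprotein acceptors, which work beside these exporters, had 3 of 10 members higher and 0 lower with miR-182-5p, and 1 higher and 1 lower with miR-183-5p. Among all genes 24.4% and 14.4% passed these thresholds with miR-182-5p and 12.4% and 8.61% with miR-183-5p. The apolipoprotein gene APOE had 81 counts with miR-182-5p, 50 with miR-183-5p and 30 in NC, with ratios of 2.82 (1.84 to 4.45) and 1.595 (0.995 to 2.598). APOE lies in the lowest quintile of all genes by mean count. In that quintile 53.2% of genes were past the higher threshold with miR-182-5p and 36% with miR-183-5p. LCAT, which esterifies cholesterol on lipoproteins, had 10.5, 6.01 and 5.95 CPM, with ratios of 1.76 (1.55 to 2.001) and 1.009 (0.876 to 1.16). NPC1, which moves cholesterol out of lysosomes, was the third at 1.36 (1.31 to 1.40) with miR-182-5p and 1.05 with miR-183-5p. SOAT2, a cholesterol-esterifying enzyme with 57 to 75 counts, was the lower one with miR-183-5p at 0.758 (0.526 to 1.09). Among 14 regulators of ABC genes that could be compared, 1 was higher and 3 were lower with miR-182-5p, and 0 and 1 with miR-183-5p. The lipogenic factor SREBF1, itself a liver X receptor target, had ratios of 1.48 (1.45 to 1.52) and 1.23 (1.20 to 1.26). KEAP1, the inhibitor of NRF2, was at 0.753 (0.715 to 0.792) and 0.792 (0.754 to 0.832), the hypoxia factor HIF1A at 0.768 (0.747 to 0.790) and 0.811, and RXRA, the partner of the liver X receptors, at 0.795 (0.769 to 0.822) and 0.869. NR1H3, which encodes liver X receptor alpha, was within the thresholds at 1.13 and 0.920. Of the receptors that control bile acid export genes, NR1H4 has no row and was not analysed here, and NR1I2 had at most 4 counts.

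Of the mitochondrial half-transporters, 1 of 4 was higher and 1 lower with miR-182-5p, beside 24.4% and 14.4% of all genes. ABCB6 (ENSG00000115657, chromosome 2, 219209772 to 219218958 in the authors' file), a porphyrin transporter, had 766 counts (12.4 CPM) with miR-182-5p, 1393 (20.7 CPM) with miR-183-5p and 1182 (18.3 CPM) in NC. The miR-182-5p library was the lowest and the miR-183-5p library the highest. Its ratio to NC was 0.678 (0.618 to 0.743) for miR-182-5p and 1.13 (1.04 to 1.22) for miR-183-5p. ABCB6 overlaps another annotated gene on its strand. ABCB8, which takes part in mitochondrial iron export, was the higher one at 63.1, 58.4 and 49.96 CPM, with ratios of 1.26 (1.21 to 1.33) and 1.17 (1.12 to 1.22). With TMM factors its miR-182-5p ratio was 1.21, under the threshold. ABCB10, an erythroid heme synthesis factor, had ratios of 0.855 (0.790 to 0.924) and 0.970.

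The enzymes of heme and iron-sulfur synthesis, whose products and precursors these proteins handle, had 1 of 12 genes higher and 4 lower with miR-182-5p, and 0 and 1 with miR-183-5p. The shares of all genes were 24.4% and 14.4%, and 12.4% and 8.61%. The glutaredoxin GLRX5, a factor of iron-sulfur assembly, was at 0.760 (0.714 to 0.807) and 0.867. PPOX, an enzyme of the heme pathway, was the higher one at 1.253 (1.13 to 1.39). FECH, which inserts the iron, was at 0.767 (0.714 to 0.824) and, as the lower one with miR-183-5p, 0.789 (0.736 to 0.845), and ALAS1, the first enzyme of the pathway, at 0.7994 (0.769 to 0.831) with miR-182-5p.

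Start regions are shown for ABCB6, the member with the lowest ratio in the miR-182-5p library, and ABCA1, the member with the highest ratio among the 22 with a mean of at least 50 counts and a matched promoter (ABCG1 has none). Each is the 250 bases before the RefSeq start in GRCh38.p14, read on the minus strand, with CACGTG, a palindrome bound by basic helix-loop-helix factors such as MYC and USF, in capitals.
ABCB6: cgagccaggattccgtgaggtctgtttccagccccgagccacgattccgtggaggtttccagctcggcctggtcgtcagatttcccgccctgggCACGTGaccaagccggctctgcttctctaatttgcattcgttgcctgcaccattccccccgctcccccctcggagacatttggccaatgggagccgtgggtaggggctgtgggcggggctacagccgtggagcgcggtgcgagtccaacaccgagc
ABCA1: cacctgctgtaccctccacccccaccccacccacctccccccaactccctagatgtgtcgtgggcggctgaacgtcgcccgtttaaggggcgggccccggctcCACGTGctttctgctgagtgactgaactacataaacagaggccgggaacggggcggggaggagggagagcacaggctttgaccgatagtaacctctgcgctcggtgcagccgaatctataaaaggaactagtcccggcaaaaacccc
The ABCB6 stretch is chr2:219218959-219219208 and the ABCA1 stretch chr9:104928156-104928405. The hexamer begins 156 bases before the ABCB6 start and 147 bases before the ABCA1 start. In windows from 250 bases before to 50 after the start, 10.2% of 10584 promoters of genes with a mean of at least 50 counts held CACGTG, as did 3 of the 22 ABC promoters searched, the third being that of ABCF1. With miR-182-5p, ABCB6 was past the lower threshold, ABCA1 past the higher one and ABCF1 between them. Other motifs searched on both strands were held by 7 of 22 ABC promoters for TGACNNNGC (15.2% of all), 15 for GGGCGG (69.5%), 4 for CCAAT (37%) and 4 for TATAAA (5.83%).

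Of the peroxisomal and lysosomal members, ABCD4, which moves vitamin B12 out of lysosomes, had 47.1 CPM with miR-182-5p, 38.9 with miR-183-5p and 33.1 in NC. Its ratios were 1.42 (1.35 to 1.51) and 1.17 (1.11 to 1.24). ABCD3, the peroxisomal importer of branched fatty acids and bile acid precursors, was nearly equal in the 3 libraries at 81.3, 79.1 and 80.4 CPM. ABCB9, a lysosomal peptide transporter, had 9.12, 9.64 and 7.67 CPM, and at 1.26 (1.12 to 1.42) it was the single ABC gene past a threshold with miR-183-5p. On the scale of log2 of FPKM plus 1 its ratio was 1.09, and genes on the opposite strand overlap ABCB9. A list of genes of peroxisome import, fatty acid oxidation and vitamin B12 handling had 1 of 10 members higher and 1 lower with miR-182-5p. With miR-183-5p 0 passed either threshold. The shares of all genes were 24.4% and 14.4% with miR-182-5p, and 12.4% and 8.61% with miR-183-5p. MMACHC, which processes vitamin B12 after ABCD4, was the higher one at 1.253 (1.15 to 1.37), and SCP2, a thiolase and sterol carrier, the lower one at 0.7998 (0.771 to 0.830).

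The 4 ribosome-associated members all had lower CPM in both microRNA libraries than in NC. ABCE1 (ENSG00000164163, chromosome 4, 145098288 to 145129524 in the authors' file), which splits ribosomes after termination, had 4218 counts (68.4 CPM) with miR-182-5p, 5690 (84.4 CPM) with miR-183-5p and 6301 (97.7 CPM) in NC. Its ratios were 0.6999 (0.673 to 0.728) and 0.864 (0.834 to 0.896). It holds the miR-182-5p match shown above, and genes on the opposite strand overlap it. ABCF2, a cytosolic ATP-binding protein of the same fold as the others, had 88.7, 110 and 118.1 CPM, with ratios of 0.751 (0.725 to 0.778) and 0.931 (0.901 to 0.961). The read-through gene ABCF2-H2BE1 had 145 counts in NC and 0 in both microRNA libraries, and with its counts added the ABCF2 ratios were 0.737 (0.712 to 0.763) and 0.914 (0.885 to 0.943).

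ABCF1, an initiation factor that binds eIF2, had 127.3, 146.4 and 157 CPM, and its ratio of 0.811 (0.787 to 0.835) with miR-182-5p was just inside the threshold. With TMM factors it lay past it, which gave the sixth lower gene. ABCF3, a relative of yeast GCN20, which acts in the eIF2 kinase pathway, had 66.8, 66.3 and 76.7 CPM and nearly equal ratios of 0.870 (0.835 to 0.907) and 0.865 (0.830 to 0.9003). ABCE1, ABCF1 and ABCF2 thus had their lowest level in the miR-182-5p library and their highest in NC, while ABCF3 had about the same level in both microRNA libraries. Neither ABCF1, ABCF2 nor ABCF3 holds a match to either seed in the 3′ UTR searched.

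Partners of these proteins in ribosome recycling and eIF2 control had 0 of 12 genes higher and 3 lower with miR-182-5p, and 0 in either direction with miR-183-5p. Among all genes 24.4% were higher and 14.4% lower with miR-182-5p, and 12.4% and 8.61% with miR-183-5p. The ratio was below 1 for 11 of the 12 with miR-182-5p and for 9 with miR-183-5p. Such ratios were held by 47.6% and 53.9% of all genes, and by 52.7% and 58% of coding genes. The median log2 ratios of the 12 were -0.21 and -0.09. HBS1L and PELO, which rescue stalled ribosomes together with ABCE1, were at 0.791 (0.748 to 0.836) and 0.795 (0.755 to 0.837) with miR-182-5p, and at 0.860 and 0.879 with miR-183-5p. The termination factor GSPT1 was the third at 0.796 (0.777 to 0.816). All genes in the highest quintile by mean count, which holds ABCE1, ABCF1, ABCF2 and ABCF3, had a median log2 ratio of -0.07 with miR-182-5p and -0.05 with miR-183-5p, and ABCE1, ABCF1, ABCF2 and ABCF3 all lay below these medians. The part of this shift in their values was not tested.

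**Figure D3:**
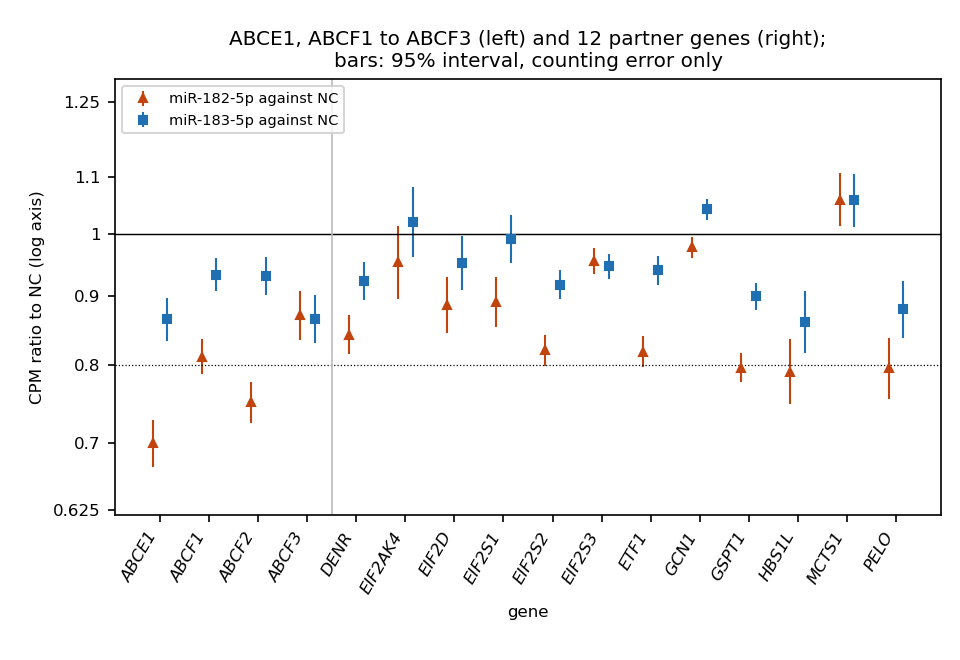
CPM ratio to the NC library (log axis) of ABCE1, ABCF1, ABCF2 and ABCF3 (left of the grey line) and of 12 partner genes (right), for the miR-182-5p library (triangles) and the miR-183-5p library (squares); bars are 95% intervals for counting error only, and the dotted line marks 0.8. ABCE1 at 0.6999 is the lowest value, and 11 of the 12 partners lie below 1 with miR-182-5p.

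In the miR-183-5p library against the NC library, differences of the ABC genes were small. A CPM at least 25% higher was seen in 1 of 28 (3.57%), ABCB9, where 12.4% of all genes and 7.18% of coding genes passed, and a ratio of at most 0.8 in 0 of 28, where 8.61% and 6.9% passed. The median log2 ratio of the ABC genes was 0.13, beside -0.02 for all genes and -0.04 for coding genes. The counting interval lay wholly above 1 for 14 of 28 members, beside 25.9% of all genes and 23.3% of coding genes. It lay wholly below 1 for 5, beside 33.7% and 37.8%. Those below were ABCG2 and the ribosome-associated members ABCE1, ABCF1, ABCF2 and ABCF3. Intervals narrow with depth, and 8 members fell in the highest quintile of all genes by mean count but 2 in the lowest. These shares are therefore not matched for depth. ABCA5 followed ABCB9 at 1.20 (1.04 to 1.39). The comparison shares its NC library with that of miR-182-5p, so values of a gene in both depend on the same counts. For the genes that hold a miR-183-5p match the ratios were 1.05 for ABCA1, 1.17 for ABCB8, 0.970 (0.901 to 1.04) for ABCB10 and 0.946 (0.698 to 1.28) for ABCC8.

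The miR-182-5p and miR-183-5p libraries were compared directly, with no use of NC. ABCA1 at 1.58 (1.40 to 1.79), ABCG1 at 1.497 (1.36 to 1.65) and ABCC3 at 1.27 (1.253 to 1.289) were the members past the higher threshold, 3 of 28 members (10.7%) beside 17.5% of all genes and 12.4% of coding genes. ABCB6 at 0.601 (0.549 to 0.657) and ABCC2 at 0.792 (0.694 to 0.904) were lower, 2 of 28 (7.14%) beside 6.91% and 5.43%. The median log2 ratio of the members was 0.00 (-0.0014 unrounded), beside 0.04 for all genes and 0.01 for coding genes. With TMM factors the counts were 2 higher and 4 lower, because ABCC3 was at 1.21 while ABCE1 and ABCF2 passed the lower threshold at 0.772 and 0.769. The shares of all genes were then 13.5% and 10.9%. ABCC4 at 0.945 (0.903 to 0.989) and ABCG2 at 1.16 (1.06 to 1.26) lay between the thresholds.

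**Figure D4:**
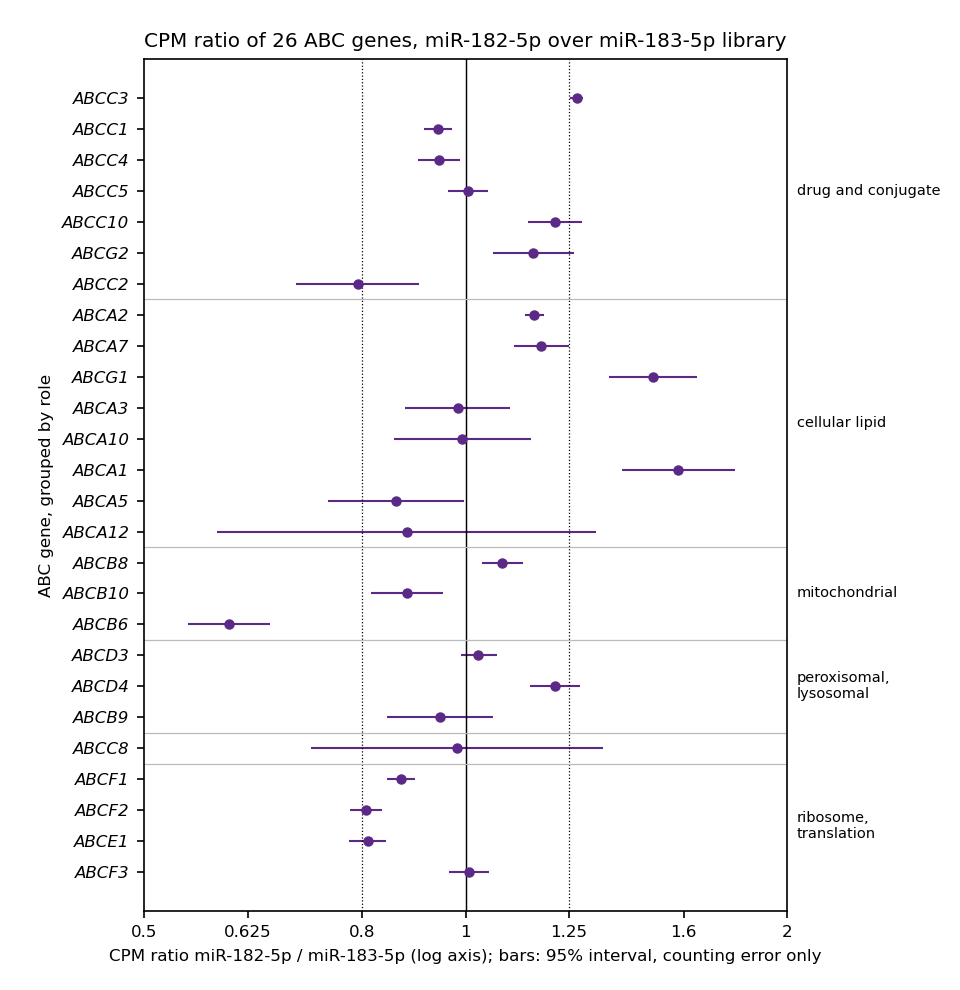
CPM ratio of the miR-182-5p library over the miR-183-5p library (log axis) of 26 of the 28 ABC genes, grouped by role; bars are 95% intervals for counting error only, and dotted lines mark the thresholds. ABCB6 is farthest left at 0.601, and ABCA1 at 1.58 and ABCG1 at 1.497 are farthest right.

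At larger folds the ABC genes were few. At 1.5-fold, 2 of 28 were higher and 0 lower with miR-182-5p against NC, beside 12.6% and 3.22% of all genes. For miR-183-5p against NC 0 passed, beside 5.54% and 3.06%, and between the microRNA libraries 1 was higher and 1 lower, beside 7.48% and 2.21%. At 2-fold 0 of 28 passed in any comparison, beside 4.36% and 0.814%, 1.99% and 0.989%, and 2.28% and 0.782% of all genes in the same order.

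ABC genes have long transcripts, and length moved with the ratio across all genes. The model length implied by count and FPKM had a median of 9.6 kb for the 28 members and 5.59 kb for all genes with as many counts, and 14 of 28 members fell in the longest quintile and 0 in the shortest 2 quintiles. In the longest quintile the median log2 ratio of all genes was 0.11 with miR-182-5p and 0.03 with miR-183-5p, and in the shortest it was -0.04 and -0.06. Of the 14 members in the longest quintile, 6 were past the higher threshold with miR-182-5p, where 25.2% of that quintile's genes were. The trend was steeper among genes with a coding transcript, split into quintiles of their own. Their medians were 0.09 and 0.02 in the longest quintile and -0.18 and -0.11 in the shortest. The part of length in the higher ratios of ABC genes was not tested. Low counts moved with the ratio too: in the lowest quintile by mean count, 53.2% of genes were past the higher threshold with miR-182-5p, and in the highest quintile 8.88%.

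**Figure D5:**
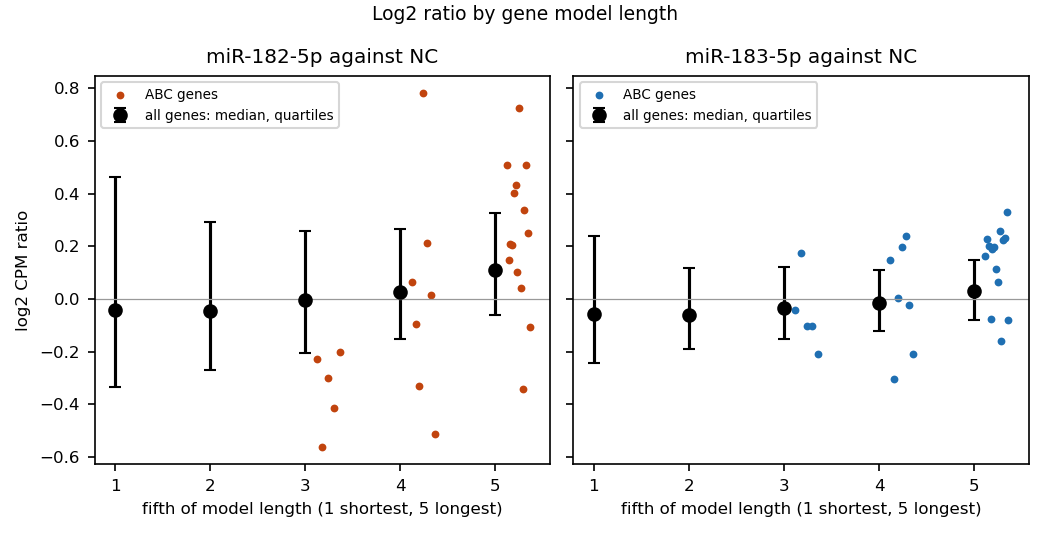
Log2 CPM ratio to the NC library by quintile of model length, with the median and quartiles of all genes (black) and 26 single ABC genes (coloured points, spread sideways for legibility), for miR-182-5p (left) and miR-183-5p (right). The median of all genes is higher in the longest quintile, at 0.11 and 0.03, and the ABC genes lie in the 3 longest quintiles.

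ABC genes under other symbols are no members by the rule. CFTR, the chloride channel of the bile duct, had 126.3, 105.5 and 89.0 CPM (miR-182-5p, miR-183-5p, NC) and ratios of 1.42 (1.37 to 1.47) and 1.19 (1.15 to 1.23), while the peptide transporters TAP1 and TAP2 had ratios of 1.06 to 1.12 in both libraries.

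The 13 remaining members had means of 1 to 42 counts, and 6 of them had 0 counts in at least 1 library. Exporters of bile salts, phospholipid and sterol into bile were among them. ABCB11, the bile salt export pump, had 4 counts with miR-182-5p and 0 in the others, and ABCB4, the phosphatidylcholine floppase, had 72 with miR-182-5p, 23 with miR-183-5p and 31 in NC. ABCB4 thus had a ratio of 2.43 (1.57 to 3.83) with miR-182-5p and 0.710 (0.395 to 1.26) with miR-183-5p. ABCG8, the partner of ABCG5 in sterol secretion, had 24, 5 and 0 counts. ABCC11, an apical exporter known from earwax type, had 49, 28 and 4 counts, ratios of 12.8 (4.70 to 48.9) and 6.70 (2.34 to 26.3), but it overlaps LONP2 on the opposite strand. ABCC6, an ATP release factor with near-identical pseudogenes, had 45, 39 and 20 counts. ABCG4 had 8, 28 and 4 counts, ABCA13 16, 11 and 4, ABCA4 18, 9 and 7, ABCA6 22, 12 and 14, and ABCA9 4, 13 and 0. ABCD2 had 9 counts and ABCC12 3, both in NC alone. ABCC8, the sulfonylurea receptor, passed the minimum at 80, 89 and 90 counts, with ratios whose intervals include 1.

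Of the 28 members compared, 12 overlap another annotated gene on their strand, 10 overlap one on the opposite strand only, and 6, among them ABCA7, ABCC3, ABCC4, ABCD3 and ABCF3, overlap none. Whether the counts use strand is not stated, so reads of the other 22 cannot be assigned with certainty.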

How the data were processed

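RNA sequencing was done on QBC-939 cells, 1 library per group. Whole-number gene counts and FPKM values (fragments scaled to transcript length and library size) were used as deposited by the authors, per the file headers. Per the submitters' processing notes, cutadapt 1.9 and FastQC were used, and the build is GRCm38, a mouse assembly, although the gene identifiers are human. For aligner, counter, strand handling and annotation the answer is not given in the sources used here.

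Counts were scaled to the library total (CPM, with 1000000 counts per library). Genes with a mean of at least 50 counts over the 3 libraries were compared, and a CPM at least 25% higher or 20% lower was counted as a difference of size, with no test. Ratios carry 95% Clopper-Pearson intervals, exact given the total of the compared counts, which reflect counting error alone. The ratio step was checked on simulated counts. Alternatives were edgeR 4.0.16 TMM and DESeq2 1.42.0 size factors, CPM without mitochondrial genes, FPKM scales, other filters and folds, and members free of overlap. Every member over the count minimum is named except 2 that enter the counts but are not reported here singly, with the full ratio for ABCC2, ABCC3, ABCC4, ABCG2 and each member past a threshold, and up to 2 genes in each direction from the 9 other gene lists, 1 of which is likewise not reported; NPC1, RXRA, NR1H3, NR1H4, NR1I2, ALAS1, GSPT1, GSTO1, GSTP1, SULT2B1, TAP1 and TAP2 were named after their values were seen. The members and lists were chosen with earlier results of these data known. Overlaps and 3′ UTRs came from GENCODE release 29 (GRCh38), which holds all 41 member identifiers, and microRNA and promoter sequences from RefSeq (GRCh38.p14).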

Additional observations from a re-analysis of the deposited data

Results flagged for a closer look

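ABCB6 lay on opposite sides of the shared NC library: its CPM ratio was 0.678 for miR-182-5p but 1.13 for miR-183-5p, each with a counting interval that excludes 1. The value for miR-183-5p is within the threshold of 25% used in the report. The difference was not tested between conditions, since each group has 1 library.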

How the results depend on the processing

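No paired analysis was possible because each group is 1 library. For miR-182-5p against NC (7 higher, 5 lower), the lower count was 3 with CPM without mitochondrial genes, with log2 of FPKM plus 1, with a minimum mean FPKM of 1 and with a mean of at least 500 counts (an alternative chosen after seeing the data). Without a filter 14 were higher. At 1.5-fold 2 were higher and 0 lower, at 2-fold 0 and 0, and among the 6 members free of overlap 2 and 0. For miR-183-5p against NC (1 higher, 0 lower), the higher count was 0 with log2 of FPKM plus 1, a mean FPKM of at least 1, 1.5-fold, 2-fold and members free of overlap, and without a filter the counts were 5 and 1. For miR-182-5p against miR-183-5p (3 higher, 2 lower), the lower count was 4 with TMM or DESeq2 size factors and 1 with log2 of FPKM plus 1, a mean FPKM of at least 1 or a mean of at least 500 counts. The counts were 10 and 4 without a filter, 1 and 1 at 1.5-fold, 0 and 0 at 2-fold, and 1 and 0 free of overlap. Stricter filters and folds leave fewer genes by construction. The cause of the other changes was not tested. Of 228 ratios of the 15 members named in full on other scales or, for ABCF2, with its read-through gene (added after seeing the data), 0 reversed and 192 moved by less than their counting interval. Depth limits the members under 50 counts most.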

Other observations

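Other carriers of bile acids and drugs, mostly importers, had 2 of 10 genes at least 25% higher and 0 lower with miR-182-5p, and 1 and 1 with miR-183-5p. Among all genes 24.4% were higher and 14.4% lower with miR-182-5p, and 12.4% and 8.61% with miR-183-5p, so these counts are near or below the background. SLCO2B1, an organic anion importer, had 129 counts with miR-182-5p, 108 with miR-183-5p and 63 in NC, with ratios of 2.14 (1.57 to 2.94) and 1.64 (1.19 to 2.28). It lies in the lowest quintile by mean count, where 53.2% and 36% of genes were past the higher threshold in these comparisons. SLCO1B3, a hepatocyte-type bile acid and drug importer, had 11.2, 8.37 and 8.63 CPM and ratios of 1.301 (1.16 to 1.46) and 0.969. SLC51A, a subunit of the basolateral bile acid exporter, had 120, 72 and 109 counts and was the lower one with miR-183-5p at 0.632 (0.463 to 0.859).

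Scaffold and trafficking genes that hold exporters at the apical membrane had 0 of 9 members higher and 2 lower with miR-182-5p, and 0 in either direction with miR-183-5p. SLC9A3R1, which encodes the scaffold NHERF1, was at 0.760 (0.740 to 0.780) and VIPAS39 at 0.788 (0.695 to 0.892). Genes of glutathione and sulfate conjugation, whose products ABCC proteins export, had 0 of 12 higher and 5 lower with miR-182-5p, and 0 with miR-183-5p. Among all genes 24.4% were higher and 14.4% lower with miR-182-5p, and 12.4% and 8.61% with miR-183-5p. GSTA1 had 62, 110 and 99 counts (miR-182-5p, miR-183-5p, NC), with a miR-182-5p ratio of 0.655 (0.469 to 0.908), and GSTM4 had 44, 69 and 69 counts with a ratio of 0.667 (0.446 to 0.987). The others were SULT2B1 at 0.752, GSTO1 at 0.771 and GSTP1 at 0.7996. By their counts and FPKM, GSTA1, SULT2B1, GSTO1 and GSTP1 have model lengths in the shortest quintile of genes with a coding transcript. In that quintile 30% of genes were past the lower threshold with miR-182-5p. The part of length in these ratios was not tested. GSTA1 and GSTM4 belong to families of near-identical copies that can share reads.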
